A study of Arabidopsis thaliana with 22 samples.

Results

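The comparison described here is that of the mutant atscl26 with the wild type Col0 in sorted cortex cells of Arabidopsis thaliana roots under the KCl control treatment. It takes 6 of the 22 arrays of the series, 3 per genotype, chosen by their labels alone, and it covers all 31524 transcript models on the array. The whole series has 8 groups, which cross these genotypes with sorted epidermis and cortex and with KNO3 and KCl. Plants of both genotypes carried a GFP reporter of cortex cells, and the labels do not name the promoter that drives it.

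The atscl26 cortex KCl group has 3 arrays from plants of the mutant, whose allele is called atscl26-2 in the headings of a second deposited table. The Col0 cortex KCl group has 3 arrays from plants with the wild-type gene, and the labels call the arrays of both groups biological replicates. All of these seedlings stood on vertical plates with 0.1 mM KNO3 and 30 mM sucrose under long days, were kept for 2 h under the control treatment, and had their roots turned into protoplasts and sorted for fluorescence. Their growth lasted 9 days per the protocol, whereas 12 days is the age in the source names. The source names also give 5 mM KCl as the control treatment, and the protocol gives fresh plates with 0.1 mM KNO3 instead. These versions cannot be told apart from the sources used here, and KCl is kept as the name. The arrays were 1-colour NimbleGen arrays, hybridised with Cy3-labelled product of amplified RNA. The p-values below measure the spread between arrays, and the labels do not say whether the replicates were separate plantings. In sorted material, fewer cells of a type and less RNA per cell cannot be told apart.

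SCL26 belongs to the GRAS family of plant transcriptional regulators, which also holds the DELLA proteins, the repressors of gibberellin responses, and SHR and SCR, which set up the layers of the root. Gibberellin bound to a GID1 receptor leads to the destruction of DELLA proteins through an F-box protein and the proteasome, and so releases growth. The relatives of SCL26 include NSP2 of the legume Medicago truncatula, known for its part in symbiotic signalling and in strigolactone synthesis. The cortex is the layer between epidermis and endodermis, through which water and mineral ions pass on their way to the stele. The title of the series names nitrogen and gibberellin control of root architecture as the subject. The comparison asks how mutant and wild-type cortex differed under the control treatment.

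The 6 arrays were first set against their labels. The 4 cortex markers had a mean log2 level of 10.89, 10.36 and 8.258 in atscl26 replicates 1, 2 and 3, and of 10.65, 10.29 and 10.72 in the Col0 replicates. In atscl26 replicate 3 none of the 4 lay above the median of its array, whereas 3 or 4 did in each of the other 5 arrays. C/VIF2, an inhibitor of vacuolar invertase used as a cortex marker, was at 11.80, 11.60 and 8.81 in atscl26, against 11.29, 10.89 and 11.28 in Col0. The cortex marker AT1G09750 was at 12.42, 12.12 and 7.86 in atscl26 and at 11.75, 12.27 and 12.60 in Col0. The 9 markers of non-hair epidermis ran the other way, with means of 8.454, 8.721 and 10.72 in atscl26 and of 8.95, 8.34 and 8.394 in Col0. WER, the MYB factor of the non-hair fate, was at 7.77, 7.81 and 12.96 in atscl26, against 10.52, 7.24 and 8.66 in Col0. RHD6, a basic helix-loop-helix factor that starts root hairs, was at 8.28, 9.58 and 12.83 in atscl26, against 8.35, 8.26 and 7.82 in Col0. The cells of atscl26 replicate 3 thus had epidermal markers high and cortical markers low, which goes against the cortex label. Below, the median of each gene list is given with and without that array, and so is each printed difference that turns its sign or moves by over 1.5 times when the array is left out.

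The 13 root hair markers averaged 8.094, 8.656 and 9.11 in atscl26, and 8.357, 8.132 and 7.785 in Col0. The 10 endodermis markers averaged 7.956, 8.632 and 7.223 in atscl26, and 7.91, 7.423 and 7.242 in Col0. CASP1, a scaffold protein of the Casparian strip of the endodermis, was at 8.92, 11.57 and 8.35 in atscl26 and at 8.62, 8.42 and 8.08 in Col0, so that atscl26 replicate 2 stood alone. The 18 stele markers averaged 7.67, 8.144 and 7.411 in atscl26, against 7.989, 7.726 and 7.657 in Col0. The 4 root cap markers averaged 7.169, 7.999 and 7.213 in atscl26 and 7.774, 7.433 and 7.357 in Col0, and none was above its array's median in any of the 6. Their part in the differences below was not tested.

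**Figure D1:**
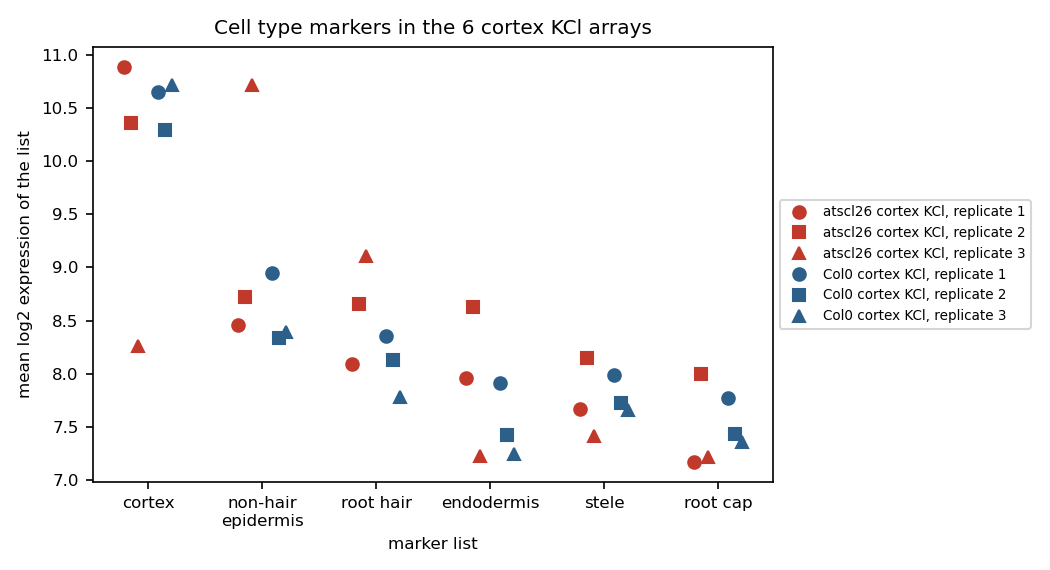
Mean log2 level (y axis) of 6 lists of cell type markers in each of the 6 arrays, with the 3 atscl26 arrays left of the 3 Col0 arrays in each panel. In atscl26 replicate 3 the 4 cortex markers average 8.258 and the 9 non-hair epidermis markers 10.72, while the other 5 arrays lie between 10.29 and 10.89 for cortex and between 8.34 and 8.95 for non-hair epidermis.

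Overall level also varied between arrays. The mean log2 value over all models was 9.155, 9.279 and 9.138 in atscl26 and 9.259, 9.136 and 9.14 in Col0, so atscl26 replicate 2 and Col0 replicate 1 were the highest. Over all models the 3 atscl26 arrays correlated with each other at 0.863 to 0.932, and the 3 Col0 arrays at 0.928 to 0.943. The array atscl26 replicate 1 correlated with the Col0 arrays at 0.934 to 0.958, closer than with either of the other 2 mutant arrays, while atscl26 replicate 2 was the farthest from Col0, at 0.879 to 0.893.

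SCL26, taken here to be locus AT4G08250, has 1 model on the array. Its log2 level was 8.74, 7.96 and 8.28 in atscl26 and 8.13, 7.53 and 7.72 in Col0. The groups overlapped, and in all 6 arrays the probe signal was below the array's median, at percentiles 48.4, 37.1 and 43.9 in atscl26 and 40.4, 35 and 37.3 in Col0. The difference was 0.54 ± 0.83 (SE, n = 3 each), with an adjusted p of 1 in limma over all models. Without atscl26 replicate 3 it was 0.56. Unless another fit is named, each SE here and below comes from the limma fit of the whole series. Such an SE pools the spread within all groups and is not the spread of the 6 arrays alone. For SCL26 the standard deviation was 0.39 within the atscl26 group and 0.30 within the Col0 group. The transcript of the mutated gene was therefore not detectably lower in the atscl26 arrays. The labels say neither where the mutation lies nor which part of the transcript the probes read, so this measurement does not check the genotype labels.

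Over the 22 arrays the group means of SCL26 lay between 7.74 and 9.071. In epidermis under KCl the difference of atscl26 from Col0 was −1.33 ± 0.93, and in cortex under KNO3 it was −0.22 ± 0.93 (SE). Neither the difference between cortex and epidermis (unadjusted p = 0.152 in limma) nor that between KCl and KNO3 (unadjusted p = 0.552 in limma) passed the threshold of an adjusted p under 0.05. Of the 10 measured loci nearest along the chromosome, 5 on each side, AT4G08263 had the difference farthest from 0, at 0.95 ± 0.74, and AT4G08240 the lowest, at −0.33 ± 0.42. The groups overlapped at all 10.

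**Figure D2:**
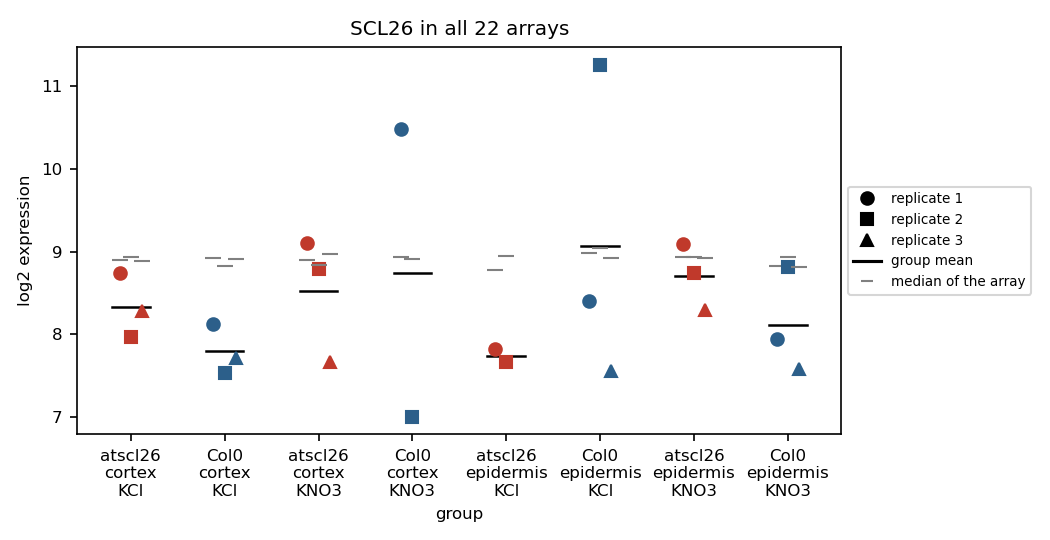
Log2 level of SCL26 (y axis) in the 22 arrays by group, with points for arrays, bars for group means and grey ticks for the median of each array. In cortex under KCl the atscl26 points at 8.74, 7.96 and 8.28 overlap the Col0 points at 8.13, 7.53 and 7.72, and all lie under their array's median.

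No transcript model passed an adjusted p of 0.05 in atscl26 against Col0 cortex cells (0 of 31524, 0%), in limma with the spread estimated from all 22 arrays and Benjamini-Hochberg adjustment. The smallest adjusted p was 1. At an unadjusted p under 0.05 there were 409 models (1.3%), with 237 higher in atscl26 (0.752%) and 172 lower (0.546%). The 3 atscl26 arrays lay above all 3 Col0 arrays at 1203 models (3.82%) and below all 3 at 1349 (4.28%). For a single model an exact permutation test of 3 against 3 arrays cannot give a two-sided p under 0.1. Standard errors had a median of 0.688, or 0.372 in a fit of the 6 arrays alone. Of all models 16517 had a difference above 0 (52.4%), the median difference was 0.0172, and 2902 models (9.21%) had a difference of more than 1 in size. None of the differences named below passed the threshold. The genes with the smallest unadjusted p among loci with a symbol, 12 in each direction, are given as descriptions of the 6 arrays. They were chosen from this comparison, and their p-values support nothing about them.

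The 12 genes higher in atscl26 had differences of 1.51 to 3.46 on the log2 scale and unadjusted p-values of 0.00199 to 0.0107, each with an adjusted p of 1 in limma. At 11 of them the groups did not overlap, beside 3.82% of all models in that direction. The choice by small p favours such genes, so this count is no separate support. Without atscl26 replicate 3 the differences were 1.22 to 3.67. They held CLE peptides, which are short secreted signals read by receptor kinases, transcription factors, an auxin-conjugating enzyme and wall or lipid genes.

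The signal peptide gene CLE1, a member of a subgroup known to respond to nitrogen deficiency in roots, was at 11.42, 11.61 and 9.90 in atscl26 and at 8.49, 8.62 and 7.302 in Col0. All 3 mutant arrays were above the wild-type arrays, with a difference of 2.84 ± 0.79 (SE of the whole-series fit, n = 3 each). Its relative CLE14, whose peptide is linked to the arrest of the root meristem under low phosphate, was at 8.86, 10.08 and 10.47 in atscl26, against 7.25, 8.01 and 6.41 in Col0. The groups again stood apart, by 2.58 ± 0.91. Over the measured CLE genes as a family, 19 of 30 were higher in atscl26, with a median of 0.0439, beside 53% higher and a median of 0.0219 over all 27143 loci at 1 model each, and the CLE median was 0.16 without atscl26 replicate 3.

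WRKY75, a transcription factor known for phosphate starvation responses and for limits on lateral roots and root hairs, was at 9.93, 11.55 and 9.97 in atscl26 and at 7.11, 7.06 and 7.04 in Col0. The 3 wild-type arrays were nearly equal, and the difference was 3.42 ± 1.06. ERF53, a factor of the AP2/ERF family, was at 11.96, 12.12 and 11.48 in atscl26, against 9.61, 9.40 and 9.35 in Col0. Both groups were tight for ERF53, with standard deviations of 0.34 in atscl26 and 0.14 in Col0. They differed by 2.40 ± 0.73, where the SE is that of the whole-series fit. CHR23, a SNF2-type chromatin remodeller, was at 8.77, 11.66 and 9.66 in atscl26 and at 7.35, 7.09 and 9.32 in Col0. It was the 1 gene of the 12 whose groups overlapped, because Col0 replicate 3 was above atscl26 replicate 1 (2.11 ± 0.73).

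WES1, which encodes a GH3 enzyme that joins auxin or salicylate to amino acids, was at 10.37, 10.77 and 11.09 in atscl26, against 9.25, 7.90 and 6.74 in Col0. The mutant arrays were alike and the wild-type arrays were spread, with a difference of 2.78 ± 0.78. KCS1, an enzyme that elongates very long chain fatty acids, was at 10.29, 8.20 and 10.05 in atscl26 and at 6.19, 6.77 and 6.35 in Col0, a difference of 3.08 ± 1.07. WAKL5, a receptor-like kinase related to the wall-associated kinases, was at 10.58, 9.47 and 12.09 in atscl26, against 9.46, 8.59 and 8.37 in Col0. Its lowest mutant array exceeded the highest wild-type array by a narrow margin, and the difference of 1.91 ± 0.66 became 1.22 without atscl26 replicate 3. CEP2, a cysteine endopeptidase, was at 10.73, 11.32 and 13.97 in atscl26 and at 8.57, 10.39 and 7.88 in Col0. Its difference of 3.06 ± 1.03 became 2.08 without atscl26 replicate 3, the array with the highest value.

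PDE337, named for a pigment-defective embryo, was at 9.54, 12.14 and 10.37 in atscl26, against 7.51, 6.99 and 7.18 in Col0. It had the highest difference of the 12, at 3.46 ± 1.01. PPa4, a soluble inorganic pyrophosphatase, was at 9.66, 10.32 and 9.81 in atscl26 and at 8.81, 8.64 and 7.80 in Col0, with the smallest difference and a small error (1.51 ± 0.47). PAPP2C, a protein phosphatase that binds phytochromes, was named for its model 2, at 11.54, 12.46 and 11.50 in atscl26, against 10.25, 11.12 and 9.26 in Col0 (1.63 ± 0.56). Its models 1 and 3 each had a difference of 0.88, so the models of this locus were not alike.

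The 12 genes lower in atscl26 had differences of −3.17 to −1.16 and unadjusted p-values of 0.00186 to 0.0168, each with an adjusted p of 1 in limma. At 11 of them the groups did not overlap, beside 4.28% of all models in that direction, a count that the choice by small p again favours. Without atscl26 replicate 3 the differences were −3.31 to −1.11. Enzymes of chlorophyll and haem metabolism made up 3 of the 12, and the others included actin and callose genes. Of 22 genes of that metabolism, these 3 among them, 9 were higher in atscl26 and 13 lower. Their median was −0.08, or −0.10 without atscl26 replicate 3.

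HEME2 is a uroporphyrinogen decarboxylase of the route shared by haem and chlorophyll synthesis. It was at 7.91, 7.03 and 8.53 in atscl26 and at 9.86, 9.05 and 9.87 in Col0. The difference was −1.77 ± 0.63 (SE of the whole-series fit, n = 3 each). PCB2, the divinyl reductase of chlorophyll synthesis, was at 7.54, 7.49 and 7.85 in atscl26, against 9.99, 8.96 and 9.47 in Col0 (−1.85 ± 0.61). All 3 mutant arrays of both genes were below every wild-type array. ACD2, a reductase of chlorophyll breakdown, was at 7.41, 6.99 and 7.01 in atscl26 and at 10.56, 7.72 and 9.97 in Col0, where replicate 2 lay close to the mutant (−2.28 ± 0.71).

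MLP329, a member of the major latex protein family, was at 6.32, 6.11 and 6.65 in atscl26, against 9.78, 10.44 and 8.38 in Col0. The mutant arrays were alike and the wild-type arrays spread, and the difference, −3.17 ± 0.87, was the lowest of the 12. GSL09, a gene of the callose synthase family, was at 6.32, 6.11 and 6.72 in atscl26 and at 8.40, 7.65 and 8.31 in Col0 (−1.74 ± 0.48). NET3C, a plant actin-binding protein of contact sites between endoplasmic reticulum and plasma membrane, was at 7.18, 6.09 and 6.08 in atscl26, against 9.01, 7.74 and 8.98 in Col0 (−2.13 ± 0.63). DIS2, a subunit of the ARP2/3 complex that branches actin filaments, was at 10.69, 7.90 and 10.41 in atscl26 and at 11.94, 11.48 and 11.91 in Col0. For DIS2 the wild-type arrays were alike and atscl26 replicate 2 was far below its group, with a difference of −2.11 ± 0.63.

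MBD7, a methyl-CpG-binding protein, was at 6.38, 6.55 and 6.32 in atscl26, against 8.11, 6.93 and 7.69 in Col0 (−1.16 ± 0.40). FBS2, an F-box protein of a stress-induced family, was at 8.98, 7.07 and 8.54 in atscl26 and at 11.28, 9.45 and 9.47 in Col0 (−1.87 ± 0.69). Neither gene's groups overlapped. MCC1, an acetyltransferase known from meiotic crossovers, was at 9.71, 8.68 and 8.61 in atscl26, against 11.30, 11.12 and 10.96 in Col0 (−2.13 ± 0.80). UBQ12, a polyubiquitin gene, was at 6.96, 6.66 and 7.96 in atscl26 and at 8.18, 8.63 and 8.83 in Col0 (−1.35 ± 0.51), with atscl26 replicate 3 near the wild type. DES1, a cysteine desulfhydrase that releases hydrogen sulfide, was at 6.99, 9.86 and 6.95 in atscl26, against 9.58, 10.05 and 10.51 in Col0. Its groups overlapped because atscl26 replicate 2 was within the wild-type range (−2.11 ± 0.79).

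**Figure D3:**
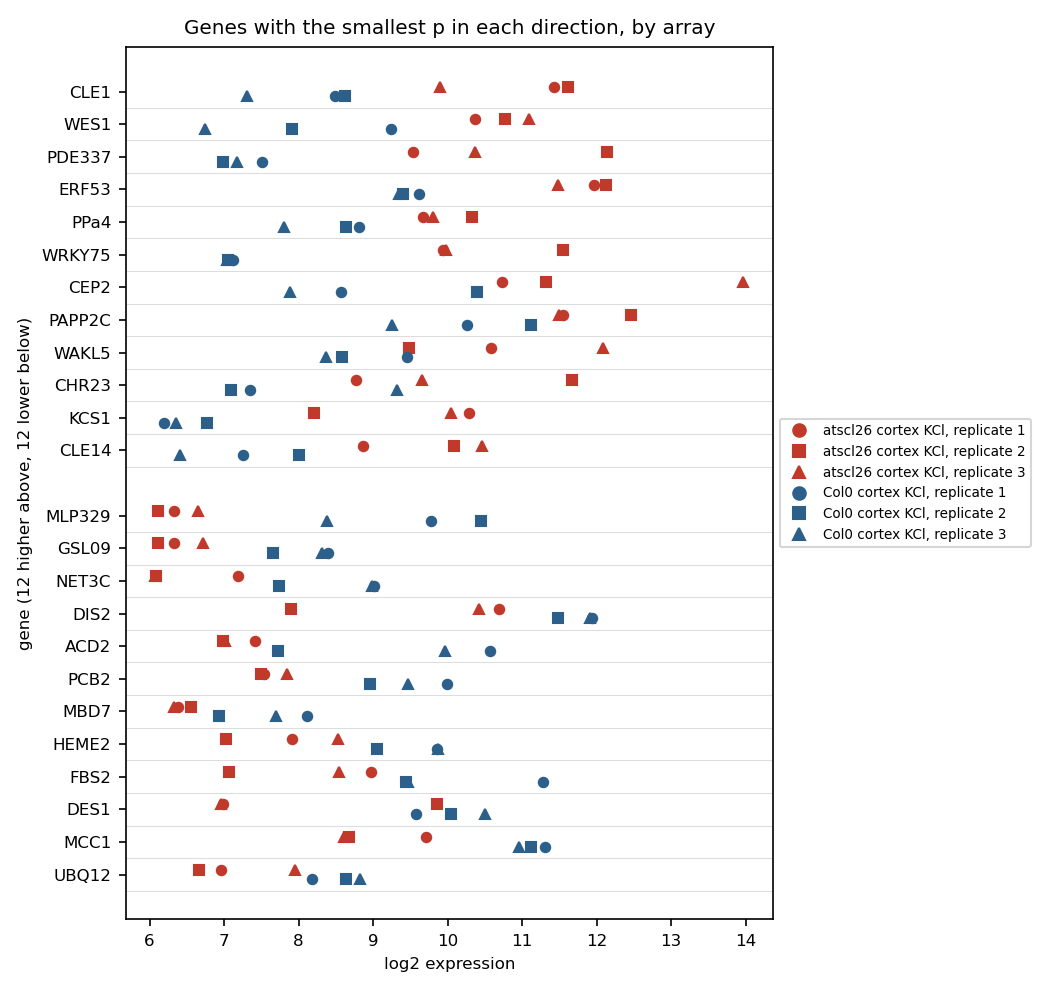
Log2 level (x axis) of the 24 genes named by the smallest unadjusted p, 12 higher and 12 lower in atscl26, in the 3 atscl26 arrays and the 3 Col0 arrays of cortex under KCl. The groups stand apart at 11 of the 12 in each direction, with CHR23 and DES1 the exceptions, and no gene passed the adjusted threshold. Choice by small p favours genes whose groups stand apart (3.82% of all models higher and 4.28% lower).

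Loci without a symbol were also among the models with the smallest unadjusted p in each direction. AT5G45060 was at 10.19, 8.91 and 8.78 in atscl26 and at 6.63, 6.95 and 6.55 in Col0. Its difference of 2.58 ± 0.55 had the smallest unadjusted p of the table, 0.000185, with an adjusted p of 1 in limma. AT2G38870 was at 13.62, 13.83 and 13.53 in atscl26, against 12.07, 11.74 and 10.48 in Col0. AT4G24790 was at 6.64, 6.70 and 6.71 in atscl26, against 8.45, 8.30 and 8.46 in Col0, so that both groups were tight and stood apart. Some of these loci have several models, which may share probes. The 4 models of AT1G27385 had differences of −1.75, −1.25, −1.27 and −0.85, and at all 4 the groups stood apart. The 2 models of AT5G48657 had differences of 3.54 and 3.19. At AT2G36360 model 5 had a difference of −2.33 ± 0.56, and models 1 and 4 had differences of 0.25 and 0.16, or 0.41 and 0.29 without atscl26 replicate 3. These 6 loci were singled out after their values were seen.

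The gene lists, 23 in all with 271 loci at 1 model each, held 147 loci higher and 124 lower in atscl26. None passed the threshold, and none had an unadjusted p under 0.05 (0 of 271, where 1.32% of all 27143 loci did). The groups stood apart with atscl26 higher at 5 of the loci (3.85% of all loci) and with atscl26 lower at 4 (4.04% of all loci). Each list is set below beside the 53% of all loci that were higher in atscl26 and their median of 0.0219.

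Gibberellin biosynthesis had 6 of 14 loci higher and 8 lower, with a median of −0.42, and without atscl26 replicate 3 it had 9 higher and a median of 0.11. GA3OX1, which makes bioactive gibberellin, was at 11.11, 11.36 and 6.64 in atscl26 and at 11.003, 10.70 and 11.80 in Col0. The low value was that of atscl26 replicate 3, and the difference of −1.46 ± 1.49 became 0.07 without it. GA20OX3, which makes its precursor, was at 10.35, 10.21 and 6.51 in atscl26, against 10.51, 8.51 and 11.39 in Col0, again with replicate 3 low. Its difference of −1.11 ± 0.96 became 0.15 without that array. Gibberellin catabolism had 5 of 7 loci higher and a median of 0.05, or 6 higher and 0.26 without atscl26 replicate 3. GA2OX6, which inactivates gibberellins, was at 11.31, 12.15 and 9.63 in atscl26 and at 10.35, 10.31 and 8.46 in Col0 (1.33 ± 1.09), with overlap, and the difference was 2.03 without atscl26 replicate 3.

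Gibberellin signalling had 3 of 10 loci higher, 7 lower and a median of −0.26, or −0.04 with 4 higher without atscl26 replicate 3. The receptor GID1A was at 10.58, 10.86 and 9.88 in atscl26, against 12.08, 11.67 and 10.63 in Col0. Only Col0 replicate 3 lay among the mutant arrays, and the difference was −1.02 ± 0.56. The DELLA gene RGL3 was at 6.25, 6.69 and 6.04 in atscl26 and at 8.47, 6.91 and 6.19 in Col0 (−0.86 ± 0.55), a difference set mainly by Col0 replicate 1. SPY, a sugar transferase that acts on DELLA proteins, was at 11.08, 7.97 and 11.09 in atscl26, against 10.98, 11.23 and 10.96 in Col0, where atscl26 replicate 2 alone was low. Its difference was −1.01 ± 0.88, or −1.53 without atscl26 replicate 3. The GASA peptides, a family that responds to gibberellin, had 3 of 7 loci higher and a median of −0.000244, or 4 higher and 0.08 without atscl26 replicate 3. GASA4 was at 14.41, 13.86 and 13.67 in atscl26 and at 14.61, 14.58 and 14.34 in Col0 (−0.53 ± 0.67).

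The GRAS family outside the DELLA genes had 13 of 24 loci higher, 11 lower and a median of 0.03. Without atscl26 replicate 3 it had 16 higher and a median of 0.35. With each array left out in turn, the GRAS median lay between −0.26 and 0.35. SCL1 was at 11.81, 11.93 and 11.74 in atscl26 and at 10.51, 11.79 and 10.80 in Col0 (0.79 ± 0.61). HAM2, a regulator of stem cells in meristems, was at 11.75, 10.76 and 10.97 in atscl26, against 11.61, 11.87 and 11.78 in Col0 (−0.59 ± 0.52). PAT1, known from phytochrome A signalling, was at 11.51, 11.53 and 11.18 in atscl26 and at 11.80, 12.77 and 11.55 in Col0. It is named because it was the 1 member whose groups stood apart, by a narrow margin. Of strigolactone synthesis and signalling 7 of 11 loci were higher, with a median of 0.10, or 8 with a median of 0.34 without atscl26 replicate 3. The strigolactone median lay between −0.11 and 0.34 with each array left out in turn. MAX1, a cytochrome P450 of strigolactone synthesis, was at 6.57, 12.70 and 6.73 in atscl26, against 7.24, 6.61 and 6.35 in Col0, so its difference of 1.93 ± 1.41, or 2.90 without atscl26 replicate 3, came from atscl26 replicate 2 alone. SMXL7, a repressor of strigolactone responses, was at 9.87, 8.39 and 8.93 in atscl26 and at 9.60, 9.74 and 10.12 in Col0 (−0.76 ± 0.66).

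Nitrate uptake and reduction had 6 of 8 loci higher, with a median of 0.06 and differences of −0.16 to 0.87, and without atscl26 replicate 3 it had 7 higher and a median of 0.24. NRT1.1, the nitrate transporter and sensor, was at 12.92, 12.06 and 12.92 in atscl26 and at 12.71, 12.70 and 11.14 in Col0 (0.45 ± 0.89). NIA2, a nitrate reductase, was at 14.16, 13.90 and 13.69 in atscl26, against 13.97, 13.98 and 13.55 in Col0 (0.09 ± 0.45). Levels of NIA2 were alike in the 6 arrays, with a difference of 0.20 without atscl26 replicate 3. NRT3.1, the partner protein of high-affinity nitrate transporters, was at 10.28, 8.26 and 12.04 in atscl26 and at 7.70, 10.77 and 9.50 in Col0, a spread within each group wider than the difference of 0.87 ± 1.36, which was −0.06 without atscl26 replicate 3.

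Of the nitrate response regulators 10 of 18 loci were higher, with a median of 0.07, or 11 with a median of 0.09 without atscl26 replicate 3. CIPK23, a kinase that acts on NRT1.1, was at 12.94, 13.44 and 13.28 in atscl26 and at 12.67, 12.82 and 12.14 in Col0. Its groups stood apart, and the difference was 0.67 ± 0.49. NLP6, of the family of nitrate-sensing transcription factors, stood apart in the other direction, at 10.97, 10.77 and 10.66 in atscl26, against 11.26, 11.46 and 11.43 in Col0, and it is named for that after its values were seen. BT2, a scaffold protein of nitrate responses, was at 12.38, 7.96 and 11.38 in atscl26 and at 12.07, 11.42 and 10.55 in Col0, with atscl26 replicate 2 alone far lower. Its difference was −0.77 ± 0.87, or −1.18 without atscl26 replicate 3.

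Ammonium uptake and assimilation had 9 of 17 loci higher and a median of 0.12, or 0.04 with as many higher without atscl26 replicate 3. GLT1, the NADH-dependent glutamate synthase, was at 14.12, 14.17 and 14.45 in atscl26 and at 13.66, 13.50 and 13.58 in Col0. Both groups were tight, and they stood apart by 0.66 ± 0.38. The cytosolic glutamine synthetase GLN1;2 was at 10.56, 11.42 and 11.32 in atscl26, against 9.27, 10.78 and 10.05 in Col0 (1.07 ± 0.68), with overlap. The ammonium transporter AMT1;3 was at 9.18, 7.69 and 10.92 in atscl26 and at 9.48, 7.63 and 7.03 in Col0 (1.22 ± 0.99), with atscl26 replicate 3 the highest of the 6 and a difference of 0.39 without it.

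Auxin and lateral root genes had 13 of 21 loci higher and a median of 0.10, or 16 higher and 0.24 without atscl26 replicate 3. TAA1, an aminotransferase of auxin synthesis, was at 11.66, 10.01 and 13.02 in atscl26, against 9.45, 10.20 and 9.52 in Col0. Only atscl26 replicate 2 was within the wild-type range, and the difference was 1.84 ± 0.88, or 1.11 without atscl26 replicate 3. The auxin receptor TIR1 was at 12.43, 9.39 and 12.28 in atscl26 and at 12.73, 12.63 and 11.94 in Col0, with atscl26 replicate 2 low. Cytokinin synthesis and response had 6 of 16 loci higher and a median of −0.11, or 7 higher and −0.10 without atscl26 replicate 3. ARR17, a cytokinin response regulator, was at 5.87, 6.67 and 6.34 in atscl26, against 8.62, 7.21 and 7.38 in Col0, and its groups stood apart (−1.44 ± 0.96). The cell cycle genes had 4 of 13 loci higher and a median of −0.09, or −0.26 with as many higher without atscl26 replicate 3. CDKB2;2, a mitotic kinase, was at 8.51, 8.15 and 8.01 in atscl26 and at 9.79, 8.84 and 9.65 in Col0, also apart (−1.20 ± 0.87).

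Phosphate starvation genes had 3 of 7 loci higher and a median of −0.06, or 2 higher and −0.36 without atscl26 replicate 3. SQD2, which makes a sulfolipid that replaces phospholipids, was at 10.85, 8.17 and 9.97 in atscl26, against 11.49, 11.72 and 10.32 in Col0 (−1.51 ± 0.73). Iron deficiency genes had 5 of 9 higher and a median of 0.03, or 7 higher and 0.12 without atscl26 replicate 3. FRU, the regulator of iron uptake, was at 11.36, 12.09 and 13.58 in atscl26 and at 11.99, 10.28 and 11.33 in Col0 (1.15 ± 0.83), and the difference was 0.53 without atscl26 replicate 3. The aquaporins had 2 of 6 higher and a median of −0.09, and the direction turned without atscl26 replicate 3, with 5 of 6 higher and a median of 0.28. The plasma membrane aquaporin PIP2;1 was at 13.48, 12.53 and 10.51 in atscl26, against 13.82, 13.98 and 13.45 in Col0. The lowest PIP2;1 value was again that of atscl26 replicate 3, and the difference of −1.58 ± 1.43 was −0.75 without it.

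All 9 loci of phenylpropanoid and flavonoid synthesis were lower in atscl26, with a median of −0.36, and without atscl26 replicate 3 the split was 4 higher and 5 lower with a median of −0.02. F3H, a hydroxylase of flavonoid synthesis, was at 12.18, 9.02 and 9.197 in atscl26 and at 12.62, 12.01 and 11.70 in Col0 (−1.97 ± 1.38). CHS, the first enzyme of that branch, was at 12.88, 11.73 and 8.99 in atscl26, against 12.56, 12.96 and 11.80 in Col0 (−1.24 ± 1.55), with a difference of −0.14 without atscl26 replicate 3. Both genes were within the wild-type range in atscl26 replicate 1. Of the genes of wounding, heat and protoplasting stress 13 of 16 were higher, with a median of 0.24, or 0.53 without atscl26 replicate 3. With each of the 6 arrays left out in turn, the median of this list lay between 0.02 and 0.53. JAZ5, a jasmonate-induced repressor, was at 8.93, 12.91 and 8.77 in atscl26 and at 10.54, 7.05 and 6.61 in Col0 (2.14 ± 1.44). LOX3, a lipoxygenase of jasmonate synthesis, was at 10.60, 12.65 and 10.58 in atscl26, against 10.87, 10.23 and 7.47 in Col0 (1.75 ± 1.17). For both genes atscl26 replicate 2 was the highest of the 6 arrays.

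Among the marker lists, the non-hair epidermis markers were higher at 9 of 9 loci with a median of 0.79, and at 5 of 9 with a median of 0.12 without atscl26 replicate 3. The cortex markers had a median of −0.79, and of 0.23 without that array. The root hair markers were higher at 11 of 13 loci both with and without it, with medians of 0.53 and 0.19. The endodermis markers had a median of 0.21, or 0.30 without it, and the stele markers one of −0.04, or 0.15. The root cap markers had a median of −0.02, or −0.01 without it.

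**Figure D4:**
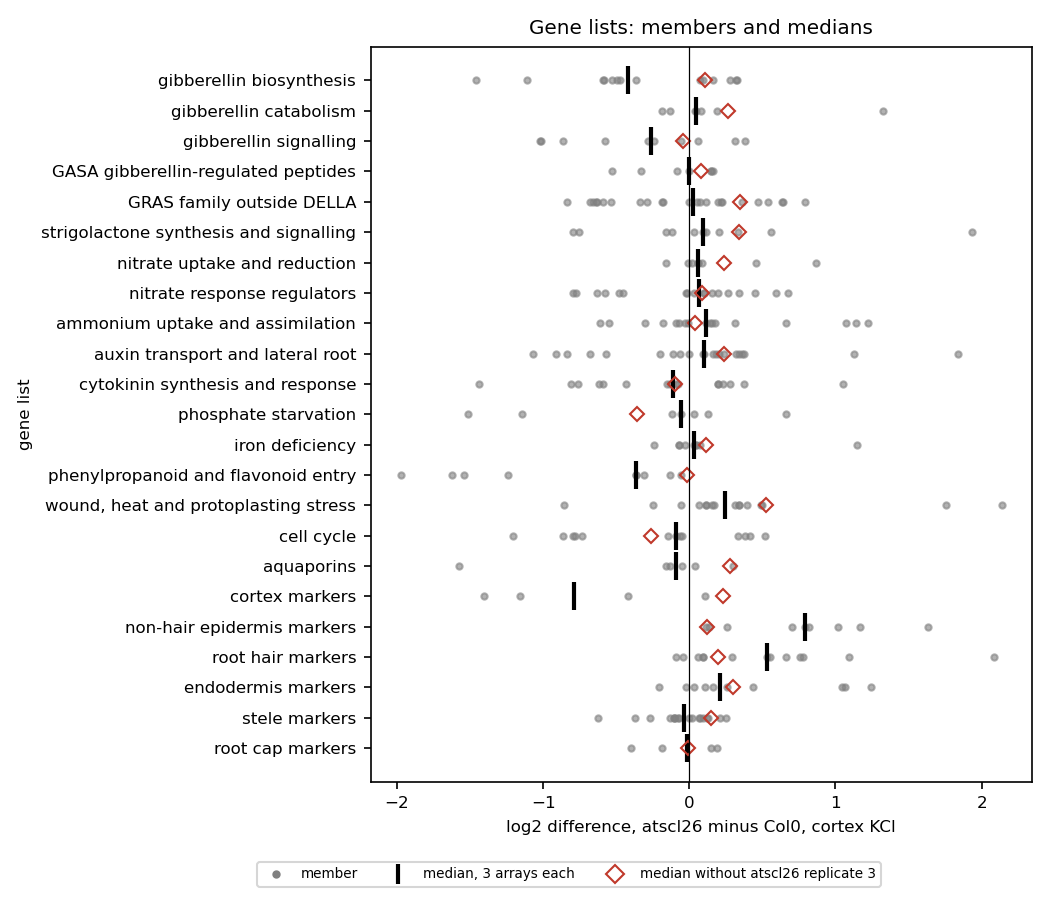
Log2 difference, atscl26 minus Col0 (x axis), of each member of the 23 gene lists, with a black bar for the list's median and a red diamond for the median without atscl26 replicate 3. The medians of the non-hair epidermis and cortex markers, 0.79 and −0.79 with all arrays, come to 0.12 and 0.23 without that array, and no member passed the threshold.

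The differences were then set beside the genotype differences in cortex under KNO3 (3 atscl26 and 2 Col0 arrays) and in epidermis under KCl (2 atscl26 and 3 Col0 arrays), which share no array with the 6. Markers in some of these arrays also ran against the labels. Non-hair epidermis markers averaged 10.1, 10.61 and 10.77 in atscl26 cortex under KNO3, against 9.488 and 8.213 in Col0. Cortex markers there averaged 10.62, 10.01 and 8.684, against 10.14 and 9.748. In epidermis under KCl, cortex markers averaged 8.69 and 7.614 in atscl26, against 11, 11.47 and 8.651 in Col0. The part of these markers in the comparisons below was not tested. The test of the difference between cortex and epidermis under KCl called 0 of 31524 models (0%, smallest adjusted p 0.983 in limma), with 790 at an unadjusted p under 0.05 (2.51%), of which 358 were higher (1.14%) and 432 lower (1.37%). The test of the difference between KCl and KNO3 in cortex also called 0 models (0%, smallest adjusted p 1 in limma), with 785 at an unadjusted p under 0.05 (2.49%), of which 344 were higher (1.09%) and 441 lower (1.4%). Over all models the genotype differences correlated at 0.181 between the cortex treatments and at 0.037 between cortex and epidermis under KCl, as a description across models of the same arrays.

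Of the 12 named genes higher under KCl, 9 were higher in cortex under KNO3 as well, with a median difference of 0.86 there, and of the 12 lower, 10 were lower, with a median of −0.59. Over all models the sign was shared at 51.7%. Among the models with an unadjusted p under 0.05 in limma, it was shared at 72.2% of the higher and 68.6% of the lower. In epidermis under KCl the sign was shared by 7 of 12 in each direction, with medians of 0.44 and −0.41, against 46.8% of all models. For the models with an unadjusted p under 0.05 these shares were 66.7% (higher) and 51.7% (lower). Both medians under KNO3 were nearer to 0 than those under KCl, where the genes had been chosen. WRKY75 had a difference of 2.73 ± 1.19 in cortex under KNO3 and of 0.92 ± 1.19 in epidermis under KCl (SE). CLE14 had a difference of 2.25 ± 1.01 under KNO3 and of 1.51 ± 1.01 in epidermis, the same sign in both. MCC1, at −1.74 ± 0.90 in cortex under KNO3, came closest to its KCl value among the lower genes.

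Other genes went different ways. WES1 had a difference of −1.46 ± 0.87 in cortex under KNO3, the opposite sign from KCl. CLE1 had one of −0.05 ± 0.88 there and of −0.52 ± 0.88 in epidermis. ERF53 had a difference of −2.09 ± 0.81 in epidermis under KCl, HEME2 one of 1.88 ± 0.71, and GSL09 one of 1.19 ± 0.54, each opposite in sign to cortex. These contrasts between settings did not pass after adjustment over all models, with adjusted p-values of 0.983 or above in limma. WAKL5 had a difference of 3.06 ± 0.74 in epidermis and of 0.19 ± 0.74 in cortex under KNO3.

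In epidermis under KNO3 (3 arrays of each genotype), which differs in both cell type and treatment, the sign was shared by 7 of the 12 higher genes and 4 of the 12 lower ones, with medians of 0.41 and 0.46, against 41.8% of all models. For the models with an unadjusted p under 0.05 in cortex under KCl, the shares were 40.5% (higher) and 35.5% (lower). Over all models the differences there correlated with those of cortex under KCl at −0.216, again as a description across models. There WRKY75 had a difference of −2.33 ± 1.06 and CLE14 one of −1.35 ± 0.91 (SE), opposite in sign to the other 3 settings. CLE1 had one of 1.98 ± 0.78 and PPa4 one of 1.34 ± 0.47, the same sign as in cortex under KCl. MLP329, at 2.09 ± 0.87, ACD2, at 2.26 ± 0.71, and MCC1, at 1.90 ± 0.80, were opposite in sign to cortex under KCl. The contrast between these settings was not tested. Cortex markers averaged 8.435, 10.53 and 11.58 in the atscl26 epidermis KNO3 arrays, against 8.085, 7.709 and 9.391 in the Col0 arrays. Their part in these signs was not tested either.

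**Figure D5:**
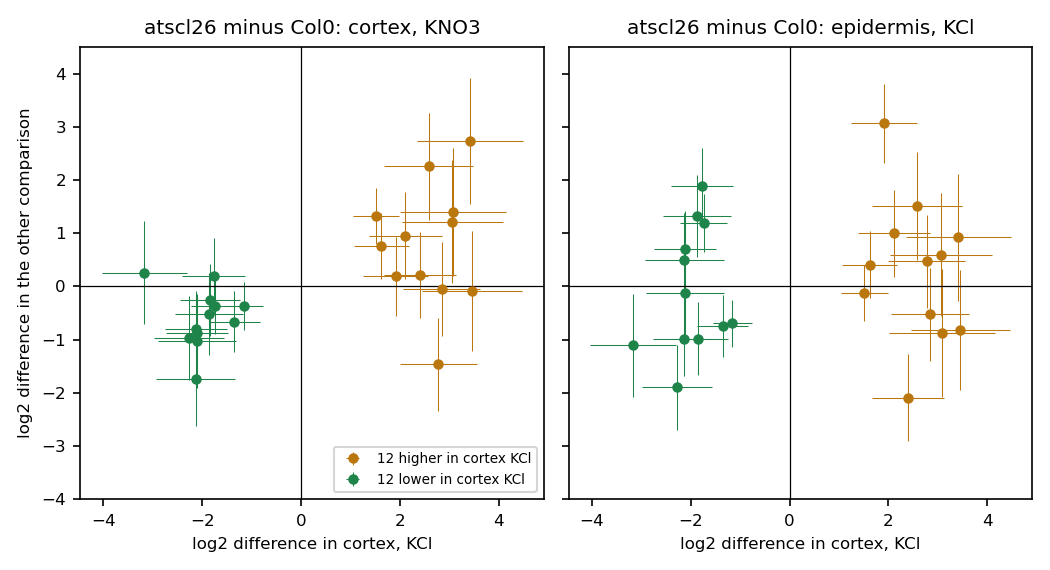
Log2 difference, atscl26 minus Col0, of the 24 named genes in cortex under KCl (x axis) against that in cortex under KNO3 (left panel) and in epidermis under KCl (right panel), with bars for standard errors. Of the 12 higher genes 9 lie above 0 under KNO3 and 7 in epidermis, and of the 12 lower genes 10 and 7 lie below 0.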

How the data were processed

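The deposited log2 values, 1 for each transcript model on each array, come from RMA per the submitters' processing notes, which name no version or settings. The final number of an ID was taken for the model's number. The design text states that 24 arrays were made and 2 removed after normalisation for low quality, none of them among the 6 used here. The authors' deposited group averages in log2 equalled the group means of both groups within 5e-09 and entered no test.

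These values were used unchanged. With limma 3.58.1 in R 4.3.3, all 22 arrays entered 1 linear model with a mean for each group (14 residual degrees of freedom, 17.71 with the prior), followed by eBayes and Benjamini-Hochberg adjustment over 31524 models in each of 3 comparisons. The number of arrays limits the precision. Normalisation within RMA can remove a shift shared by all transcripts. Each list used the lowest-numbered model of a locus. Symbols came from a TAIR10.1 gene table, which held the locus of 30935 models and gave a symbol for 12508, and 19 list names absent from it are shown by its symbol or by locus. The labels name atscl26 without a locus, and the gene table does not pair SCL26 with one. The locus AT4G08250 was taken from general knowledge of the gene.

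Named genes are SCL26, any model past the threshold and, as fewer than 24 passed, 12 models in each direction, those with a symbol and the smallest unadjusted p. Up to 4 members of each list with the smallest p, and all markers, could also be named. The comparison and the lists were chosen with earlier results of these data known. Alternatives covered normalisation, dim models, the arrays in the fit, array weights, the prior, the replicate block and single arrays left out.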

Additional observations from a re-analysis of the deposited data

How the results depend on the processing

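The count of models past the threshold, 0, stayed 0 in most alternatives. Array weights gave 8 models, 5 higher and 3 lower (AT1G23720, PERK9, CLE1, AT4G36515, AT5G45060, then MLP329, AT2G21980 and DES1), all with an adjusted p of 0.0429. Leaving out 1 of the 6 arrays at a time gave 0 to 1 models, the 1 being AT2G36360 model 5 without Col0 replicate 3 (−3.19 ± 0.44, adjusted p = 0.0442 in limma). Unadjusted p-values under 0.05, 409 in the fit described, came to 303 to 561 with 1 array left out, 226 without dim models (15762 models), 246 without atscl26 replicate 2 and Col0 replicate 1 together, 1066 without the 4 arrays whose median correlation was under 0.82, 1277 on the 6 arrays alone and 2340 with array weights. The alternatives on the arrays with a higher overall mean were chosen after seeing the data. With the replicate number as a block there were 0 models past the threshold and 398 unadjusted. Deviations of same-numbered arrays correlated at −0.0478, −0.0497 and 0.0931. With 3 arrays a group these values cannot settle whether same-numbered arrays shared a planting or another batch. The contrast with cortex KNO3 called 10 models without the 4 low-correlation arrays, which leaves 1 Col0 array under KNO3, and the cause was not tested. The contrast with epidermis KCl called 0 models in all 14 alternatives, and neither contrast can be run on the 6 arrays alone. All 25 named models kept their sign in every alternative that measured them. The alternatives largely reuse the arrays from which 24 of these models were chosen by their p. The kept signs are therefore no separate support for them. With 3 arrays a group and a median standard error of 0.688 in the fit of all 22 arrays, differences well above 1 on the log2 scale could go uncalled. That median was 0.372 on the 6 arrays alone, where 4.05% of models had an unadjusted p under 0.05 and the smallest adjusted p was 0.672 in limma. The median standard error was 0.442 without the 4 low-correlation arrays, none of which is among the 6.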

Other observations

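Families of genes that appeared among the named genes were looked at after their values were seen, and their counts are descriptions of the 6 arrays. Members were taken by symbol or synonym, so a family can be incomplete, and the named genes are counted in it. Of 67 measured loci with a WRKY symbol, transcription factors best known from defence and senescence, 56 were higher in atscl26 and 11 lower, with a median difference of 0.44, beside 53% higher and a median of 0.02 over all 27143 loci. The groups stood apart with atscl26 higher at 9 of the 67 and with atscl26 lower at 0 (3.85% and 4.04% of all loci), and 4 had an unadjusted p under 0.05 in limma (1.32% of all loci). Without atscl26 replicate 3 the median was 0.43. WRKY17 had a difference of 1.93 ± 0.84 and WRKY30 one of 1.61 ± 0.71 (SE of the whole-series fit, n = 3 each). Neither passed the adjusted threshold.

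Of 21 loci with an ERF symbol 14 were higher in atscl26, against 53% of all loci, with a median of 0.16, or 0.28 without atscl26 replicate 3. Their groups stood apart with atscl26 higher at 1 (3.85% of all loci) and lower at 0 (4.04% of all loci). Of 9 loci with a numbered GH3 symbol or synonym, WES1 among them, 8 were higher in atscl26, with a median of 1.28, or 0.78 without atscl26 replicate 3. The groups stood apart with atscl26 higher at 3 of them (3.85% of all loci), among them DFL1 (2.28 ± 0.85). Of 22 genes of tetrapyrrole metabolism 9 were higher and 13 lower, with a median of −0.08, or −0.10 without that array, and the groups stood apart with atscl26 higher at 1 (3.85% of all loci) and lower at 4 (4.04% of all loci). Of 9 major latex protein genes 7 were higher, with a median of 0.52, or 0.12 without atscl26 replicate 3, while MLP329 and MLP328 (−2.38 ± 1.21) were lower with no overlap (4.04% of all loci). Of 9 callose synthase genes 2 were higher, against 53% of all loci, and 7 lower, with a median of −0.48, or −0.57 without that array. At 3 of them the groups stood apart with atscl26 lower (4.04% of all loci).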
